A study of Bos taurus with 6 samples.

Results

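The genes described here are 34 genes of leukocytes and of inflammation, chosen by name from 22839 gene symbols. They are markers of leukocytes in general, of macrophages and monocytes and of T and B lymphocytes, together with genes of complement C1q, of antigen presentation, of chemokines and of the 5-lipoxygenase pathway. All 34 were listed in the counts, each in 1 row, and 27 of them were among the 15039 rows that passed a filter on low counts and were tested. CD3E, CD3D, CD4, CD8A, CD2, CD79B and ALOX5AP were removed by the filter.
Steers of Hanwoo, the native cattle of Korea, were compared for the number of fine marbling particles (NFMP), the small flecks of fat seen in a cut of longissimus thoracis (LT) muscle. The high-NFMP group held steers 3-8, 10-8 and 10-9, aged 32.5, 33.8 and 34.5 months, and the low-NFMP group held steers 3-1, 3-3 and 10-16, aged 37.8, 33.7 and 35.4 months. Both groups were raised conventionally on commercial feed, and RNA was taken from the LT of each steer for 1 library. The comparison asks which transcripts of the muscle differ with the fineness of marbling. The steers were chosen for their NFMP and not treated, so any other trait that goes with NFMP cannot be told apart from it. The counts of a library summed to between 16283873 and 17192750. Levels are given as normalised counts, that is, counts brought to the average of the TMM-adjusted library sizes, so that 1 normalised count is 0.0595 CPM. The libraries were read from the 3′ end of transcripts, so counts were not divided by gene length, and comparisons of level between genes are on this scale.
Resident macrophages of muscle and of fat tissue take up debris and lipid, and they are the main source of C1q, which starts the classical pathway of complement. Chemokines are secreted proteins that draw leukocytes into tissue, those of the CXC group with CXCL3 and GRO1 acting on neutrophils and CCL2 on monocytes. The enzyme 5-lipoxygenase makes leukotrienes, lipid mediators of inflammation, from arachidonic acid.

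The libraries were of muscle by their markers. Titin (TTN), the giant protein of the sarcomere, was the most abundant gene, with a mean of 976004 normalised counts. Muscle creatine kinase (CKM) was at 78665, 148902 and 120659 in steers 3-8, 10-8 and 10-9 and at 85305, 99012 and 110846 in steers 3-1, 3-3 and 10-16, the order of steers kept throughout. All 7 muscle fibre markers (ACTA1, CKM, MYH1, MYH2, MYH7, TTN and MB) were tested, none had an unadjusted p below 0.05 by edgeR, and their groups overlapped. The share of a library's counts held by the 34 leukocyte and inflammatory genes ran from 0.0287% to 0.0395%. Their summed level was 5760.0, 7259 and 4830.0 normalised counts in the high-NFMP steers and 6003, 6082 and 5995 in the low-NFMP steers, and these ranges overlapped. The most abundant member in every steer was B2M, the light chain of class I molecules, at 2091, 3471 and 1807 against 3218, 2500.3 and 3471. Next in mean level came LCP1 (500.0 and 578 in the high- and low-NFMP group), CD74 (622 and 346), CXCL12 (469 and 365), CTSS (352 and 275) and C1QA (262 and 158). Over all steers, 11 members had a mean above 100 normalised counts, 16 a mean between 10 and 100 and 7 a mean below 10. The 9 macrophage and monocyte genes summed to 817, 487 and 569 normalised counts in the high-NFMP steers and 515, 797 and 415 in the low-NFMP steers. The 7 T and B lymphocyte genes summed to 50.7, 101 and 51.1 normalised counts in the high-NFMP steers and 48.8, 55.5 and 35.3 in the low-NFMP steers, so that in every steer the lymphocyte genes were counted less often than the macrophage genes. In bulk muscle, fewer cells of a kind and less RNA per cell cannot be told apart.

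Between the groups, the macrophage gene AIF1, the C1q genes C1QA and C1QC, the invariant chain gene CD74 and ALOX5 were higher in the high-NFMP steers, and the chemokine genes CXCL3, GRO1 and CCL2 and the integrin gene ITGAM were lower, by unadjusted p. The threshold of the study was a fold change above 2 together with an unadjusted p below 0.05, here from the quasi-likelihood test of edgeR. By it, 2 of the 27 tested members were higher (AIF1 and ALOX5) and 4 were lower (CXCL3, GRO1, CCL2 and ITGAM). Of all 15039 tested genes, 2.53% were higher and 1.36% were lower by that threshold. CXCL3, GRO1, ITGAM and ALOX5 are among the genes that the study itself lists from these libraries, and this was known when the members were chosen, so their calls are not independent evidence and nothing is read from the counts beside those shares. At an unadjusted p below 0.05 with any fold change, C1QA, C1QC and CD74 joined the higher genes, giving 5 higher and 4 lower, where 5.73% and 5.74% of all tested genes were. With the filter, no member had an adjusted p below 0.05 by edgeR, although 0.685% of all tested genes did. The smallest was that of CXCL3, at 0.0582. Without the filter in edgeR, and with DESeq2, CXCL3 was the 1 member with an adjusted p below 0.05, and after quantile normalization with limma there was none. All 3 high-NFMP steers lay above all 3 low-NFMP steers in 4 tested members (CD14, CSF1R, C1QA and ALOX5) and below them in 3 (ITGAM, CXCL3 and GRO1), against 7.97% and 9.16% of all tested genes. The median log2 fold change of the 27 tested members was 0.36, beside 0.02 for all tested genes. Among the members 18 values were above 0 and 9 below, beside 7805 above and 7234 below among all tested genes. Between steers of a group, the median of the members' centred log2 levels had an SD of 0.32, about as large as that median. These counts and this median describe the members that passed the filter. GRO1 passed it through the low-NFMP steers alone and ALOX5 through the high-NFMP steers and 1 low-NFMP steer, so their differences are partly set by the filter.
The counts rested on few steers. Without steer 3-1, the oldest steer, or with age as a term, CXCL3 was the 1 member past the threshold of the study and the 1 member with an unadjusted p below 0.05. With age as a term, 373 of all 15039 tested genes were higher and 278 lower by the threshold. An unadjusted p below 0.05 was then found for 1261 of them in both directions together. The threshold was passed by 1 higher and 4 lower members without steer 3-8, 3 higher and 2 lower without steer 10-8, 2 higher and 1 lower without steer 10-9, 7 higher and 1 lower without steer 3-3 and 0 higher and 3 lower without steer 10-16. Over all tested genes the threshold was passed by 366 higher and 378 lower without steer 3-8, 422 higher and 208 lower without steer 10-8, 467 higher and 198 lower without steer 10-9, 450 higher and 186 lower without steer 3-1, 484 higher and 174 lower without steer 3-3 and 447 higher and 236 lower without steer 10-16. With an unadjusted p below 0.05 there were 2 higher and 5 lower members without steer 3-8, 5 higher and 3 lower without steer 10-8, 4 higher and 1 lower without steer 10-9, 10 higher and 1 lower without steer 3-3 and 1 higher and 3 lower without steer 10-16. In both directions together, 1725 of 15039 tested genes had such a p with all steers. There were 2352 of 15417 without steer 3-8, 1543 of 15520 without steer 10-8 and 1575 of 15472 without steer 10-9. Of the fits without a low-NFMP steer, 1310 of 15504 had it without steer 3-1, 1431 of 15415 without steer 3-3 and 1509 of 15538 without steer 10-16. Scaled by library totals alone, 1 member was higher by the threshold, and 2 were higher at an unadjusted p below 0.05 in place of 5. Of all tested genes, 315 were then higher and 248 lower by the threshold, in place of 381 and 205. With at least 10 counts in every library, 20 members were tested in place of 27, and ALOX5 and GRO1 were not among them. By the threshold 1 member was then higher, in place of 2, and 3 were lower, in place of 4. In that fit 247 of all 13248 tested genes were higher and 117 lower by the threshold. The median of 0.36 was 0.20 with age as a term, 0.17 without steer 3-1 and 0.69 without steer 3-3. Age and NFMP group were partly aligned, since 2 of the low-NFMP steers were older than all high-NFMP steers, and the part of age in the results was not tested beyond that fit.

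**Figure D1:**
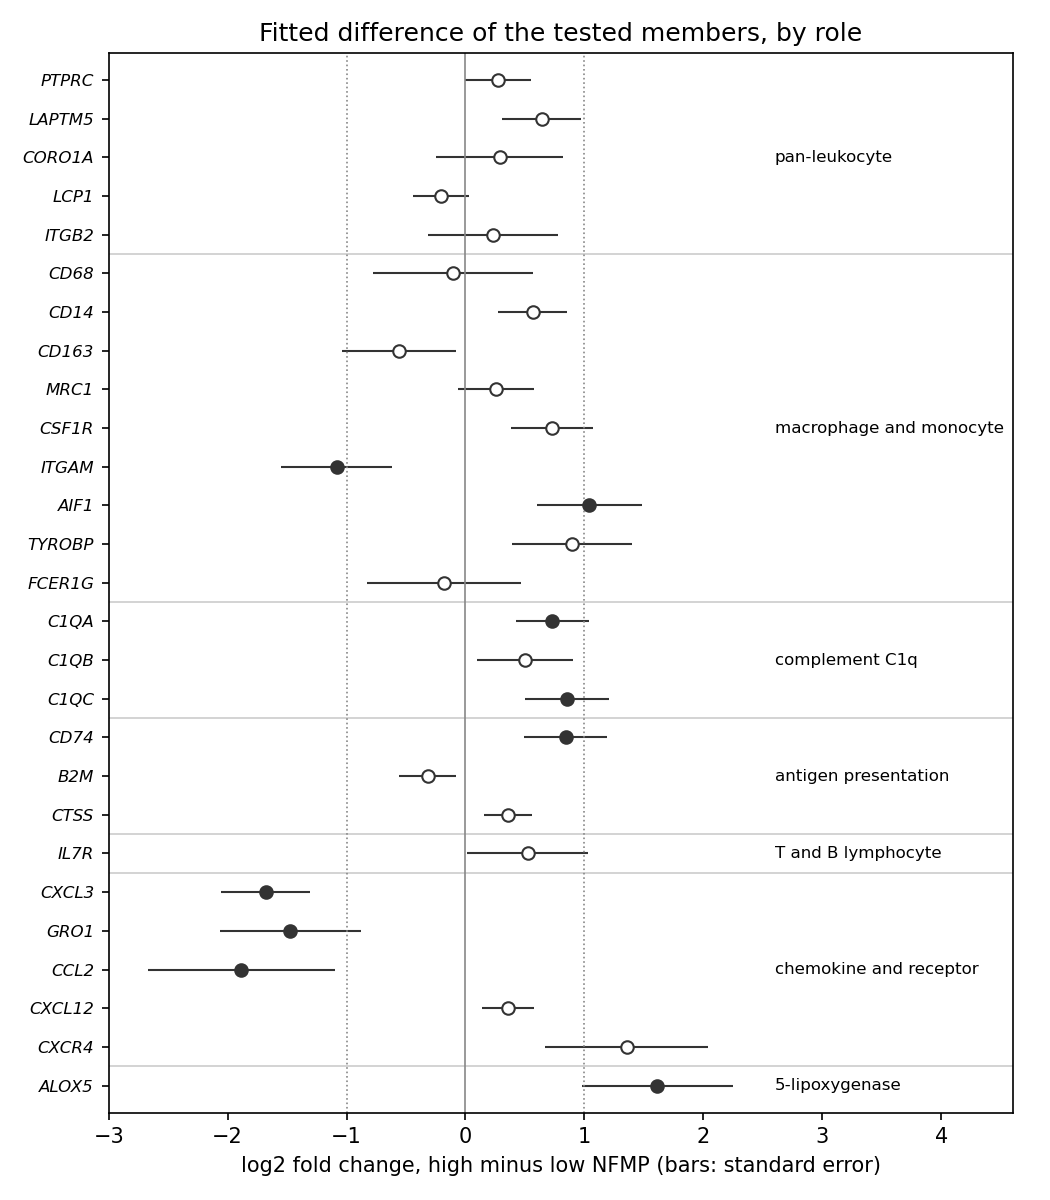
Fitted log2 fold change (horizontal axis, high minus low NFMP) of the 27 tested members, ordered by role, with the standard error as a bar. Filled points had an unadjusted p below 0.05 by edgeR, dotted lines mark a fold change of 2, and CCL2, CXCL3 and GRO1 lie at the lower end, down to -1.88 for CCL2, with CXCR4 at 1.36 and ALOX5 at 1.61 at the upper end.

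The 5 genes of leukocytes in general did not pass the test with all steers. PTPRC, the CD45 phosphatase on the surface of leukocytes, was at 141, 162 and 107 normalised counts in the high-NFMP steers and 90.9, 149.9 and 97.9 in the low-NFMP steers, and steer 3-3 of the low-NFMP group lay within the range of the high-NFMP group. LAPTM5, a lysosomal protein of leukocytes, had the largest log2 fold change of the 5, 0.64 with a standard error (SE) of 0.33, with means of 109 ± 31.1 and 69.6 ± 25.5 (SD, n = 3). Its unadjusted p was below 0.05 without steer 10-9 or 3-3, up to 0.94, and with the leading number of the label added as a term (0.84). CORO1A and LCP1, which bind actin, and ITGB2, the beta chain of leukocyte integrins, had log2 fold changes of 0.29, -0.21 and 0.23, and LCP1 had an unadjusted p below 0.05 without steer 3-8 (-0.52). The median log2 fold change of the 5 genes was 0.27. Their summed level was 990.1, 815 and 549.6 normalised counts in the high-NFMP steers and 734, 911 and 733 in the low-NFMP steers, with LCP1 the most abundant, and the groups overlapped.
Over all lists of further immune genes, 167 of 271 genes were tested, and 17 were higher and 5 lower at an unadjusted p below 0.05, where 5.73% and 5.74% of all tested genes were. The 17 higher genes include CD52, HDC and PTGES, which passed the filter through the high-NFMP steers alone, so this count is partly set by the filter. Of 23 further genes expressed across leukocytes, 22 were tested, 6 were higher at an unadjusted p below 0.05, none was lower, and the median log2 fold change was 0.29. In 7 of the 22 all high-NFMP steers lay above all low-NFMP steers, beside a share of 7.97% of all tested genes. The 7 include CD52, so this number is also partly set by the filter. CD52, CD48 and EVI2B were also past a fold change of 2. CD52, a short glycoprotein of lymphocytes and monocytes, was at 24.3, 35.6 and 13.04 against 2.87, 5.55 and 7.07. Its log2 fold change was 2.21 (SE 0.60). CD52 was past the threshold whichever of the 6 steers was left out, but it reached the minimum of the filter in no low-NFMP steer, so nothing is read from that. CD48, a surface protein that binds CD2, was at 28.4, 35.6 and 54.2 against 22.97, 9.25 and 12.1, a log2 fold change of 1.41 (SE 0.48). EVI2B, a membrane protein of myeloid cells that lies within NF1 in the gene table of ARS-UCD2.0, was at 40.5, 37.8 and 29.1 against 18.2, 18.5 and 10.1, a log2 fold change of 1.19 (SE 0.44). The high-NFMP steers lay above the low-NFMP steers in all 3 genes. NF1 itself had a log2 fold change of -0.49. CD48 was no longer past the threshold without steer 10-9 (1.12), nor was EVI2B without steer 10-16 (0.99) or with age as a term (1.11). The most abundant gene of the list was LSP1, an actin-binding protein of leukocytes, with means of 1344 ± 249 and 1002 ± 91.2 (SD, n = 3). The summed level of the list was 2965, 3042 and 3755 normalised counts in the high-NFMP steers and 2196, 2941 and 2077 in the low-NFMP steers. All high-NFMP steers lay above the low-NFMP steers in that sum, and steers 3-8 and 3-3 nearly met.

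Among the 9 macrophage and monocyte genes, AIF1 was higher, ITGAM was lower, and the other 7 did not pass the test. Their median log2 fold change was 0.26. AIF1, a calcium-binding protein of activated macrophages, was at 117, 57.8 and 38.1 normalised counts in the high-NFMP steers and 32.5, 48.1 and 22.2 in the low-NFMP steers. Steer 3-8 stood apart from the rest, and steer 10-9 lay below steer 3-3, so the groups overlapped. On the log2 scale the fold change was 1.04 (SE 0.44, edgeR p 0.0329 unadjusted and 0.388 adjusted), between 0.47 and 1.36 with a steer left out, and AIF1 was no longer past the threshold without steer 3-8, 3-1 or 10-16. Nor was it with scaling by library totals alone (0.97), by limma after quantile normalization (0.88) or with age as a term (0.46). In ARS-UCD2.0 AIF1 overlaps NCR3, a receptor gene of natural killer cells, which was at 131 and 101 on average in the groups, with a log2 fold change of 0.38, and whether reads were counted for both genes was not tested.
ITGAM, the CD11b integrin chain of macrophages and neutrophils, was at 22.3, 11.1 and 12.04 against 42.1, 29.6 and 25.2. All high-NFMP steers lay below all low-NFMP steers. The fitted difference on the log2 scale was -1.08 (SE 0.47, edgeR p 0.0361 unadjusted and 0.404 adjusted), between -1.47 and -0.85 with a steer left out, and ITGAM was no longer past the threshold without steer 10-8, 10-9, 3-1 or 3-3, nor with the leading number of the steer label (-0.89) or age (-1.01) as a term. ITGB2, the chain with which CD11b pairs, had a log2 fold change of 0.23 (SE 0.55).
CD14, which binds bacterial lipopolysaccharide, was at 146, 107 and 115 in the high-NFMP steers and 92.8, 99.9 and 55.5 in the low-NFMP steers. CSF1R, the receptor for the growth factor of macrophages, was at 52.7, 57.8 and 85.2 and 34.4, 47.2 and 36.3. In both genes the high-NFMP steers lay above the low-NFMP steers, the nearest pair being steers 10-8 and 3-3 for CD14 and steers 3-8 and 3-3 for CSF1R. Their log2 fold changes were 0.57 (SE 0.29) and 0.73 (SE 0.35), with unadjusted p by edgeR of 0.0712 and 0.0541. The unadjusted p of CD14 was below 0.05 with the leading number of the label as a term (0.79), and that of CSF1R without steer 3-8, 10-8 or 3-3, up to 0.88.
The scavenger receptor CD163 and the mannose receptor MRC1, found on tissue macrophages, were spread within the groups. CD163 was at 264, 66.7 and 137 against 207, 339 and 147, with the lowest value in steer 10-8 and the highest in steer 3-3, and it was past the threshold of the study without steer 3-8 (-1.18). MRC1 lay between 76.6 and 164 over all 6 steers, and both ends of that range were low-NFMP steers, and its unadjusted p was below 0.05 without steer 3-3 (0.72). TYROBP, a signalling adaptor, had means of 42.8 ± 7.49 and 22.9 ± 16.7 (SD, n = 3) and a log2 fold change of 0.90, 1.61 and past the threshold without steer 3-3, while FCER1G, its relative, and the lysosomal protein CD68 had log2 fold changes of -0.18 and -0.10 at low levels, with high- and low-NFMP means of 11.95 and 13.6 and of 12.7 and 13.8.
Of 33 further macrophage genes, 32 were listed in the counts and 23 were tested. F13A1, the transglutaminase factor XIII A and the most abundant of them, was the 1 gene with an unadjusted p below 0.05, a share no larger than the 5.73% of all tested genes that were higher. It was at 680.0, 361 and 363 against 261, 392 and 223, with a log2 fold change of 0.68 (SE 0.28). Steer 3-8 was the highest, and steer 3-3 lay above the other high-NFMP steers. Without steer 3-8, 3-1 or 10-16 the unadjusted p was no longer below 0.05, with log2 fold changes between 0.31 and 0.95 with a steer left out, nor was it when scaled by library totals (0.61) or with age as a term (0.25). The median of the list was 0.37, with 17 values above 0 and 6 below, beside 7805 above and 7234 below among all tested genes.

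The 3 genes of C1q encode the chains of a single protein and lie side by side in ARS-UCD2.0. C1QA was at 294, 259 and 233 normalised counts in the high-NFMP steers and 82.3, 224 and 167 in the low-NFMP steers. C1QB was at 81.1, 55.6 and 39.1 and 22.97, 54.6 and 46.4, and C1QC at 135, 90.01 and 116 and 37.3, 99.9 and 51.5. In all 3 genes steer 3-8 was the highest and steer 3-1 the lowest, and steer 3-3 was the highest of the low-NFMP steers. The groups did not overlap in C1QA, where steers 10-9 and 3-3 nearly met, and overlapped in C1QB and C1QC. The log2 fold changes were 0.73 (SE 0.30), 0.50 (SE 0.41) and 0.85 (SE 0.35). The unadjusted p by edgeR was 0.0307 for C1QA, 0.237 for C1QB and 0.03 for C1QC, and the adjusted p were 0.377, 0.671 and 0.373. C1QA no longer had an unadjusted p below 0.05 without steer 3-8 or 3-1, and C1QC without steer 3-8, 10-9, 3-1 or 10-16. The log2 fold change of C1QA was 0.42 without steer 3-1 and that of C1QC was 0.58, the lowest values with a steer left out, and the highest were 1.07 and 1.35, without steer 3-3, both past the threshold of the study, as was C1QC without steer 10-8 (1.02). With age as a term the log2 fold changes were 0.20 for C1QA, -0.18 for C1QB and 0.35 for C1QC, so that C1QB changed sign and neither C1QA nor C1QC had an unadjusted p below 0.05. Scaled by library totals alone, C1QA (0.66) and C1QC (0.78) did not have one either. Summed over the 3 genes the level was 509.7, 405 and 388 normalised counts in the high-NFMP steers and 143, 378 and 265 in the low-NFMP steers.
Of 19 further complement genes, all were tested, 3 were higher at an unadjusted p below 0.05 and none was lower, beside 5.73% and 5.74% of all tested genes, with a median log2 fold change of 0.21. C3, the central complement protein, was past a fold change of 2, at 22.3, 32.2 and 112 against 10.5, 18.5 and 16.2. The high-NFMP steers lay above the low-NFMP steers, but steer 10-9 stood far above the rest. The log2 fold change of 1.88 (SE 0.58) became 0.86 without that steer, no longer past the threshold. Clusterin (CLU), a secreted chaperone that also blocks the end of the complement cascade, was the most abundant of the list, at 2853, 1786 and 2167 against 1438, 1194 and 1185. All high-NFMP steers lay above all low-NFMP steers, with a log2 fold change of 0.83 (SE 0.20, edgeR adjusted p 0.0874, 0.0136 to 0.394 over the alternatives).

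CD74, the invariant chain that guides class II molecules, was at 359.7, 980.1 and 527 normalised counts in the high-NFMP steers and 247, 444 and 347 in the low-NFMP steers. Steer 10-8 stood far above the other steers, and steer 3-8 lay below steer 3-3, so the groups overlapped. CD74 had a log2 fold change of 0.84 (SE 0.35, edgeR p 0.0353 unadjusted and 0.401 adjusted), and it was 0.39 without steer 10-8. The unadjusted p was no longer below 0.05 without steer 10-8, 10-9, 3-1 or 10-16, and the log2 fold change ran between 0.39 and 1.12 with a steer left out, past the threshold of the study without steer 3-8 or 3-3. Nor did CD74 have an unadjusted p below 0.05 without a filter (0.84), by limma after quantile normalization (0.78) or with the leading number of the label (0.59) or age (0.67) as a term. CTSS, the protease that trims the invariant chain, had means of 352 ± 36.98 and 275 ± 43.1 (SD, n = 3), and B2M had 2456 ± 889.8 and 3063 ± 503 (SD, n = 3). Their log2 fold changes were 0.36 and -0.32, and neither passed the test with all steers, B2M having an unadjusted p below 0.05 without steer 10-8 (-0.62).
Of 14 class II genes, 12 were listed and 5 were tested, and none had an unadjusted p below 0.05. Their median log2 fold change was 0.64. BOLA-DRB3, a beta chain and the most abundant, was at 469, 1175 and 439 against 209, 553 and 427. BOLA-DRA, the alpha chain, was at 222, 445 and 227 against 152, 253 and 179. CIITA, the activator of class II transcription, was at 60.8, 151 and 48.1 against 66.98, 87.9 and 35.3. Steer 10-8 was the highest in CD74 and in each of the 5 tested class II genes (BOLA-DRA, BOLA-DRB3, BOLA-DMA, BOLA-DMB and CIITA), a feature named after the values were seen. It lay between 1.81 and 2.15 times the mean of the 6 steers in these genes. The class II genes BOLA-DQA2 and BOLA-DQA5, removed by the filter, were each counted in some steers only. BOLA-DQA2 was at 0, 0 and 32.1 against 0, 0 and 46.4, and BOLA-DQA5 at 46.6, 0 and 0 against 16.3, 0.925 and 0. Steers with counts of either gene were found in both groups. These genes vary between animals in sequence, and how reads of other alleles were counted was not tested.
Of 15 class I genes, the symbol BOLA had 4 rows, and 16 rows of the list were tested. The most abundant was JSP.1, a class I heavy chain, at 5030.4, 178 and 4540.2 against 2965, 3845 and 9499. Steer 10-8 lay far below all other steers, and the most abundant BOLA row was at 7706 in that steer and at 1322 in steer 10-9. NLRC5, the activator of class I transcription, was the 1 gene of the list with an unadjusted p below 0.05. As 1 of 16 tested rows, that is near the 5.74% of all tested genes that were lower. NLRC5 was at 64.9, 73.3 and 49.1 against 232, 79.6 and 75.7, with a log2 fold change of -1.05 (SE 0.41). Steer 3-1 stood apart, and without it the log2 fold change of NLRC5 was -0.32. It was past the threshold neither in that fit nor without steer 3-8 or 10-9, nor by limma after quantile normalization (-0.90) or with the leading number of the label (-0.79) or age (-0.23) as a term.

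**Figure D2:**
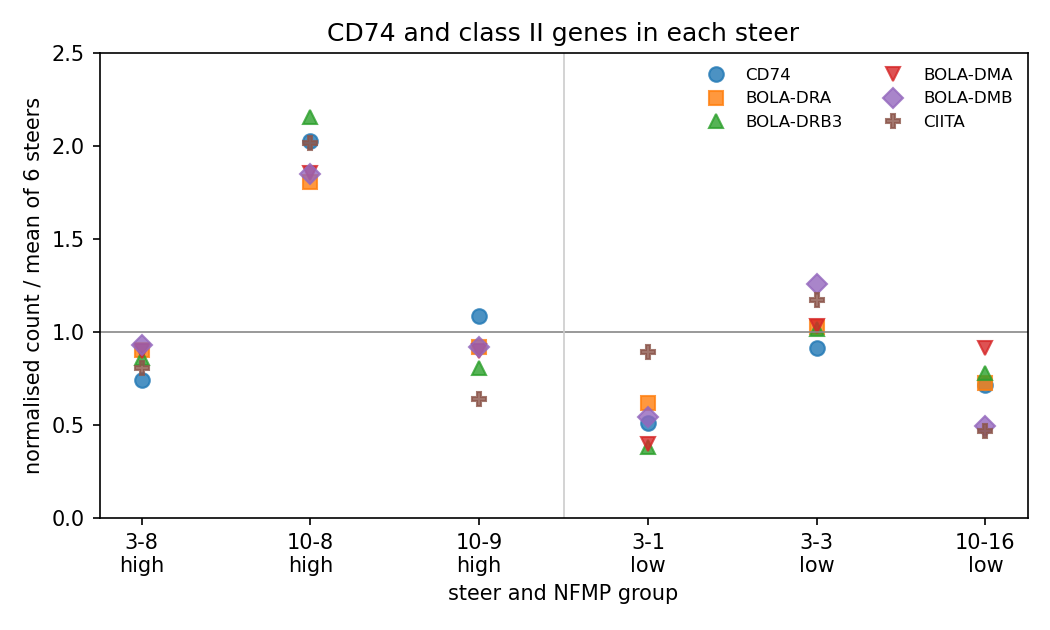
Level of CD74 and 5 class II genes in each steer (horizontal axis), as the normalised count divided by the mean of the 6 steers (vertical axis), with 1 point per gene. Steer 10-8 lies between 1.81 and 2.15, above all other steers in each gene.

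T and B lymphocyte genes were near the lower limit of these counts. IL7R, the receptor for interleukin-7, was the 1 gene of the 7 that was tested, at 29.4, 41.1 and 15.04 normalised counts in the high-NFMP steers and 24.9, 24.1 and 10.1 in the low-NFMP steers. The groups overlapped, and the log2 fold change was 0.52 (SE 0.51). CD3E, a chain of the T cell receptor complex, was at 3.04, 21.1 and 6.02 against 0.957, 15.7 and 8.08, with the highest values in steers 10-8 and 3-3. CD4, the co-receptor of helper T cells and of some macrophages, had raw counts of 3, 2 and 7 in the high-NFMP and 0, 2 and 0 in the low-NFMP steers. Its normalised counts in the high-NFMP steers were above those in the low-NFMP steers. Steers 10-8 and 3-3 had the same raw count, however, and were set apart by the scaling alone, at 2.22 and 1.85. The summed counts, corrected for depth, gave a ratio of 6.48 (exact 95% interval 1.44 to 59.6, counting error only). CD3D, CD8A, CD2 and CD79B had between 0 and 18 counts in each steer, the groups overlapped, and a difference between them was not tested.
Of 24 further T and natural killer cell genes, 22 were listed and 7 were tested. IL2RG, a receptor chain that several interleukins share, was the 1 of these 7 with an unadjusted p below 0.05, beside 5.73% of all tested genes that were higher. It was past the threshold of the study, at 20.3, 41.1 and 25.1 against 11.5, 13.9 and 15.1. The high-NFMP steers lay above the low-NFMP steers, with a log2 fold change of 1.08 (SE 0.48), and the threshold was not passed without steer 10-8, 3-1, 3-3 or 10-16, with values between 0.78 and 1.28 over the 6 fits. Scaling by library totals (1.00), limma after quantile normalization (0.93) and the leading number of the label (0.90) or age (1.07) as a term also ended that call. TRAT1, an adaptor of the T cell receptor, was the most abundant of the list at means of 264 and 312, above all lymphocyte members. Of 12 B and plasma cell genes, 2 were tested (CD79A and JCHAIN), and neither had an unadjusted p below 0.05. JCHAIN, the joining chain of antibodies, was the most abundant, at 23.6 and 21.2.

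The chemokine genes CXCL3, GRO1 and CCL2 were lower in the high-NFMP group, CXCL12 did not pass the test, and CXCR4 passed it in some of the alternatives only. CXCL3 was at 26.3, 23.3 and 29.1 normalised counts in the high-NFMP steers and 83.2, 53.7 and 117 in the low-NFMP steers. The high-NFMP steers lay close together, below all low-NFMP steers. The means were 26.3 ± 2.87 and 84.7 ± 31.7 (SD, n = 3). Fitted over all steers, the log2 fold change of CXCL3 was -1.68 (SE 0.37, edgeR adjusted p 0.0582, 0.00432 to 0.376 over the alternatives). It lay between -1.93 and -1.34 as each of the 6 steers was left out in turn, and each time CXCL3 was past the threshold of the study.
GRO1, for which CXCL1 is given as a synonym in ARS-UCD2.0, lies beside CXCL3 there. It was counted less often, at 3.04, 8.89 and 5.01 against 16.3, 14.8 and 16.2. All high-NFMP steers lay below the low-NFMP steers and below the minimum of the filter. GRO1 had a log2 fold change of -1.47 (SE 0.60, edgeR p 0.0262 unadjusted and 0.357 adjusted), and it was between -1.90 and -1.18 with a steer left out and past the threshold without steer 10-8 but not without 3-8, 10-9, 3-1, 3-3 or 10-16, nor with age as a term (-1.32). The genes are alike in sequence, and the methods mention counting reads with more than a single alignment, so that reads can be shared between them and the values of CXCL3 and GRO1 are uncertain as separate measurements. The counts of CXCL3 were between 2.62 and 8.67 times those of GRO1 in a steer, with both ends of that range in high-NFMP steers.
Of the CXC chemokine genes listed beside the members, CXCL14 and CXCL16 were tested, with means of 43.8 and 30.2 and of 75.5 and 70.4 in the high- and low-NFMP group, and did not pass the test (log2 fold changes 0.53 and 0.10). CXCL2, CXCL5, CXCL8, CXCL9, CXCL10 and CXCL11 were removed by the filter, and all 8 are named here after their values were seen. CXCL2 had no count in the high-NFMP steers and 6, 10 and 4 in the low-NFMP steers. GRO3 is given as its synonym in ARS-UCD2.0, and whether CXCL2 shares reads with CXCL3 and GRO1 was not tested. With a floor of 3 counts over the high-NFMP group, the summed counts of CXCL2, corrected for depth, gave a ratio of low over high of 6.17. That ratio leaves out the counting error of the low-NFMP counts and the spread between steers. CXCL8 had raw counts of 1, 0 and 0 and of 6, 3 and 3, a ratio of low over high of 11.1 (exact 95% interval 1.64 to 475, counting error only). CXCL9, a chemokine for T cells, went the other way, with 4, 1 and 1 counts in the high-NFMP steers and none in the low-NFMP steers. With the same floor in the low-NFMP group its ratio of high over low was 2.16, again without counting error or the spread between steers. CXCL10 had 3, 18 and 0 counts against 0, 10 and 0, CXCL11 had 2, 2 and 2 against 0, 8 and 0, and CXCL5 had 1 count in steer 10-9 and none elsewhere.
CCL2 was at 90.2, 37.8 and 13.04 against 318, 131 and 72.7. Steer 3-1 was far above the others, and steer 3-8 lay above steer 10-16, so the groups overlapped. For CCL2 the log2 fold change was -1.88 (SE 0.78, edgeR p 0.0495 unadjusted and 0.435 adjusted). It was -1.12 without steer 3-1 and between -2.79 and -1.12 with a steer left out, and CCL2 was not past the threshold without steer 10-8, 10-9, 3-1 or 3-3, without a filter (-1.92) or with age as a term (-1.49). CXCR4, the receptor for CXCL12, was at 24.3, 32.2 and 44.1 against 0.957, 25.9 and 12.1, and steer 3-1, with 1 count, was the lowest. Steer 3-3 lay above steer 3-8, and the log2 fold change of 1.36 (SE 0.69) had an unadjusted p of 0.0697 by edgeR. CXCR4 was past the threshold of the study without a filter (1.34), by DESeq2 (1.37), by limma after quantile normalization (1.87) and without steer 3-3 (2.35), and its log2 fold change was 0.81 without steer 3-1. CXCL12, which holds leukocytes in tissue and is made by stromal cells, had means of 469 ± 85.6 and 365 ± 83.00 (SD, n = 3).
Of 36 further chemokines and receptors, 30 were listed and 13 were tested, and 2 were higher (CCL24 and CCL16) and none lower at an unadjusted p below 0.05, beside 5.73% and 5.74% of all tested genes, with a median log2 fold change of 0.20. CCL24, which draws eosinophils, was at 54.7, 32.2 and 16.05 against 3.83, 18.5 and 14.1. Steer 10-9 lay below steer 3-3, and the log2 fold change was 1.49 (SE 0.59), 0.97 without steer 3-8 and 1.06 without steer 3-1, where it was not past the threshold, and 0.37 and not past it with age as a term. CCL16 was at 132, 106 and 43.1 against 61.2, 38.9 and 56.5, named after its values were seen, and steer 10-9 lay below steers 3-1 and 10-16. It had a log2 fold change of 0.84 (SE 0.39), between 0.50 and 1.198 with a steer left out, and its unadjusted p was not below 0.05 without steer 3-8, 10-8, 3-3 or 10-16, with library totals alone (0.78), by limma after quantile normalization (0.67) or with age as a term (0.79). It was past the threshold of the study without steer 10-9. CCL14 was the most abundant, at 673 and 543.
Of 39 cytokine and NF-kappaB genes, 29 were tested, 1 was higher and 4 were lower at an unadjusted p below 0.05, beside 5.73% and 5.74% of all tested genes, and the median log2 fold change was 0.13. NFKBIZ, a nuclear regulator of NF-kappaB target genes, was at 25.3, 15.6 and 36.1 against 86.1, 69.4 and 61.6. The high-NFMP steers lay below the low-NFMP steers, and the log2 fold change of -1.49 (SE 0.38, edgeR adjusted p 0.113, 0.024 to 0.438 over the alternatives) stayed past the threshold when any steer was left out. SELP, the selectin with which vessel walls capture leukocytes, was at 20.3, 16.7 and 36.1 against 63.2, 26.8 and 73.7. Steer 10-9 lay above steer 3-3, and SELP, with a log2 fold change of -1.15 (SE 0.46), was not past the threshold without steer 3-8, 10-8, 3-1 or 10-16, with values between -1.54 and -0.84 over the 6 fits, or with age as a term (-0.56). NFKBIA, the most abundant gene of the list and an inhibitor of NF-kappaB, had means of 2527 and 2304.

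**Figure D3:**
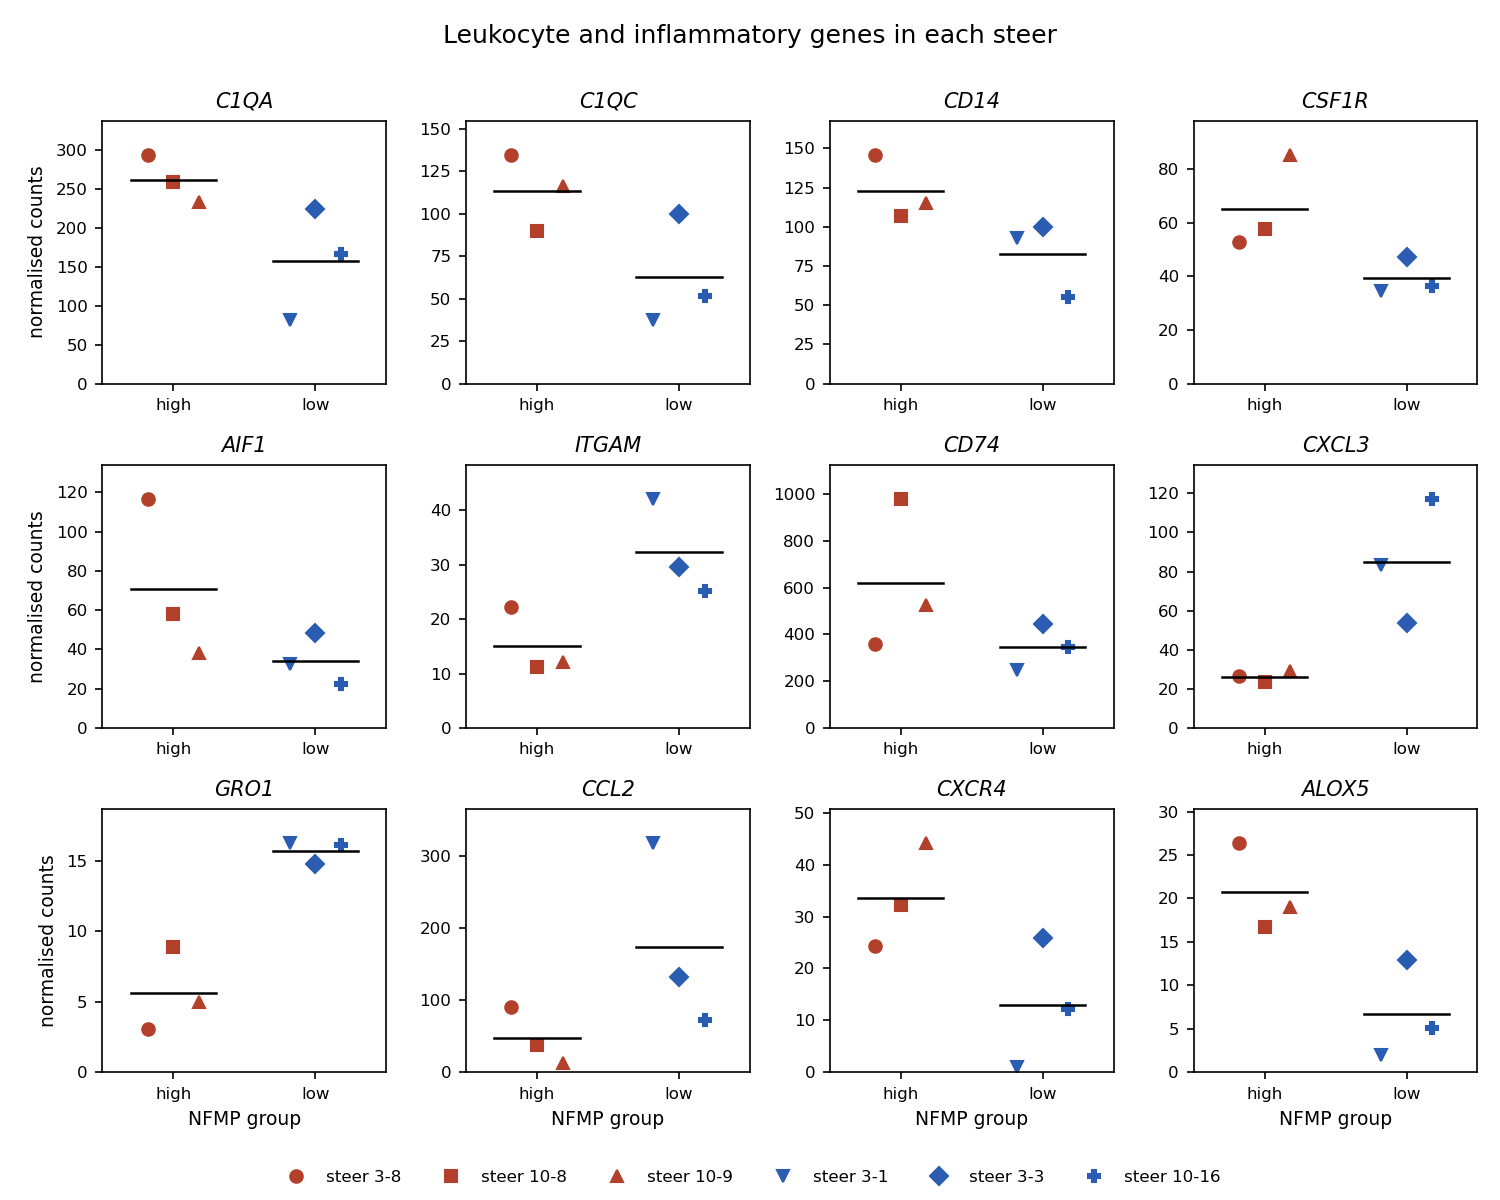
Normalised counts (vertical axes, each from 0) of 12 leukocyte and inflammatory genes in each steer, with high-NFMP steers in red, low-NFMP steers in blue and the group mean as a black line. The high-NFMP steers lie apart from the low-NFMP steers in C1QA, CD14, CSF1R, ITGAM, CXCL3, GRO1 and ALOX5, and overlap with them in the other 5 genes.

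ALOX5, which encodes 5-lipoxygenase, was at 26.3, 16.7 and 19.1 normalised counts in the high-NFMP steers and 1.91, 12.96 and 5.05 in the low-NFMP steers. The high-NFMP steers lay above all low-NFMP steers, and steer 3-3 was the nearest. ALOX5 had a log2 fold change of 1.61 (SE 0.63, edgeR p 0.0227 unadjusted and 0.341 adjusted), between 1.18 and 2.54 with a steer left out, and it was not past the threshold without steer 3-8, 3-1 or 10-16 or with age as a term (0.83). ALOX5AP, the membrane protein that presents arachidonic acid to the enzyme, had raw counts of 4, 3 and 12 in the high-NFMP and 7, 14 and 1 in the low-NFMP steers, with overlap of the groups.
Of 30 further genes of eicosanoid synthesis and receptors, 19 were tested, 2 were higher at an unadjusted p below 0.05 and none was lower, beside 5.73% and 5.74% of all tested genes, and the median log2 fold change was 0.19. PTGES, the inducible enzyme that makes prostaglandin E, was at 11.1, 16.7 and 14.04 against 0, 3.70 and 2.02. PTGES2, a more abundant gene named for the same reaction, was at 424, 628 and 589.7 against 327, 158 and 326. All high-NFMP steers lay above all low-NFMP steers in both. Their log2 fold changes were 2.78 (SE 0.79) and 1.02 (SE 0.27). PTGES, of those 2, reached the minimum of the filter in no low-NFMP steer, so its call and the count of 2 are partly set by the filter. It stayed past the threshold when any steer was left out, but nothing is read from that. PTGES2 fell under a fold change of 2 without steer 10-8, 10-9 or 3-3, with a lowest log2 fold change of 0.74, with scaling by library totals (0.96) and with the leading number of the label as a term (0.85). The most abundant gene of the list was EPHX2, an epoxide hydrolase, with means of 2276 and 1991.

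Markers of other cells were measured beside these genes. Of 14 neutrophil genes, 9 were listed and 3 were tested (S100A8, S100A12 and LTF), with no unadjusted p below 0.05. LTF, an iron-binding protein also made by other cells, was the most abundant at 353 and 343, and the list summed to 511, 301 and 421 normalised counts in the high-NFMP steers and 337, 431 and 439 in the low-NFMP steers. The receptors CXCR1 and CXCR2, on which CXCL3 and GRO1 act, had at most 3.03 and 6.08 normalised counts in a steer, and CXCR1 was at 0 in all high-NFMP steers and in steer 3-1. Of 6 tested mast cell genes, HDC, the enzyme that makes histamine, was the 1 with an unadjusted p below 0.05, beside 5.73% of all tested genes that were higher. HDC was at 10.1, 22.2 and 17.05 against 3.83, 4.63 and 3.03, with a log2 fold change of 2.06 (SE 0.62). All high-NFMP steers lay above the low-NFMP steers, none of which reached the minimum of the filter, so this call is partly set by the filter. The mast cell list summed to 225, 153 and 213 normalised counts in the high-NFMP steers and 158, 172 and 124 in the low-NFMP steers, with GATA2 the most abundant. KIT, CPA3, MS4A2 and HPGDS, also in that list, did not pass the test. Of 10 dendritic cell genes, 4 were tested and none had an unadjusted p below 0.05, CD83 being the most abundant at 26.9 and 22.6.
Of 6 adipocyte markers, all were tested, ADIPOQ and CIDEC, with a fold change below 2, were higher at an unadjusted p below 0.05, beside 5.73% of all tested genes, and the median log2 fold change was 0.62. ADIPOQ, the hormone adiponectin, was at 1608, 961 and 1016 against 705, 947 and 661, and CIDEC, a protein of lipid droplets, at 1119, 555 and 524 against 456, 386 and 342. Both separated the groups, and steer 3-8 was the highest in all 6 markers. Their log2 fold changes were 0.63 (SE 0.23) and 0.89 (SE 0.27), and 0.36 and 0.45 without steer 3-8, where ADIPOQ no longer had an unadjusted p below 0.05, and CIDEC was past a fold change of 2 without steer 10-8, 10-9 or 3-1, up to 1.09, and with the leading number of the label as a term (1.04). With age as a term neither had an unadjusted p below 0.05 (0.32 and 0.73). The list summed to 9179, 4001 and 3284 normalised counts in the high-NFMP steers and 3680.2, 4316 and 3053 in the low-NFMP steers, with FABP4 the most abundant and none at 0. Steer 3-8, the highest in these markers, was also the highest in the 3 C1q genes, in ALOX5 and in 2 of the 9 macrophage and monocyte genes, AIF1 and CD14. CD163, MRC1 and FCER1G were highest in steer 3-3, TYROBP in steer 10-8, CSF1R in steer 10-9, ITGAM in steer 3-1 and CD68 in steer 10-16. Steer 3-8 was the highest in 9 of 23 further macrophage genes, with F13A1, and in 9 of 19 further complement genes, with CLU. How often a steer was the highest over all tested genes was not counted, so nothing is read from these numbers of genes. CD74 was highest in steer 10-8. The part of fat tissue in the values of AIF1, the C1q genes and ALOX5 was not tested.
Of 8 endothelial markers, 1 was higher and none lower at an unadjusted p below 0.05, beside 5.73% and 5.74% of all tested genes, with 5 log2 fold changes above 0, 3 below and a median of 0.14. CLDN5, a protein of tight junctions, was the higher gene, at 142, 109 and 121 against 58.4, 93.5 and 43.4, with a log2 fold change of 0.93 (SE 0.31) and no overlap, and past a fold change of 2 without steer 10-8 or 3-3, up to 1.28, and with the leading number of the label as a term (1.14). With age as a term CLDN5 had no unadjusted p below 0.05 (0.65). CDH5, the cadherin of vessel walls, was at 149, 153 and 158 against 167, 183 and 166, all high-NFMP steers lying below all low-NFMP steers, but did not pass the test (log2 fold change -0.16). The list summed to 2047, 1401 and 1757 normalised counts in the high-NFMP steers and 1703, 1613 and 1317 in the low-NFMP steers, with PECAM1 the most abundant. Of 6 fibroblast markers, 1 was lower and none higher at an unadjusted p below 0.05, beside the same shares, and 5 log2 fold changes were above 0, with a median of 0.27. PDGFRA was the 1 marker below 0, at 363, 338 and 234 against 384, 403 and 540.1 and a log2 fold change of -0.51 (SE 0.22), with an unadjusted p no longer below 0.05 without steer 10-9 or 10-16 and values between -0.63 and -0.31. That list summed to 12483, 15148 and 12055 normalised counts in the high-NFMP steers and 9333, 11725 and 12313 in the low-NFMP steers, with DCN the most abundant. None of the 5 pericyte and smooth muscle markers passed the test, and ACTA2 was the most abundant of them. Of 6 red blood cell markers, HBB, a globin chain, was at 18.2, 2.22 and 1.00 against 0, 0 and 14.1, the list summed to 92.2, 54.5 and 59.2 normalised counts in the high-NFMP steers and 62.2, 61.1 and 71.7 in the low-NFMP steers, and ALAS2 was the most abundant. Of the satellite cell markers MYF5 and MYOD1, MYOD1 was tested and had a log2 fold change of -0.23. The part of these cells in the results was not tested.

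Over the 27 tested members, steer 3-1 was the lowest in 10, steer 10-16 in 7 and steers 10-8 and 10-9 in 4 each, while steers 3-3 and 3-8 were the lowest in 1 each. Steer 3-8 was the highest in 8 and steer 10-8 in 6. The same numbers over all tested genes were not counted, so these describe the members only. Steer 3-3, of the low-NFMP group, lay within or above the range of the high-NFMP group in, among others, C1QC, CD163, MRC1, TYROBP, CXCR4 and CD74. The p-values rest on 3 separate steers in each group, and with 3 steers in each the smallest p of an exact permutation test is 0.1.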

How the data were processed

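RNA of the LT of 6 steers was sequenced by the authors with a 3′ mRNA kit, with 1 library per steer, and the deposited values are read counts per gene symbol without normalization. The submitters name Bowtie2 and bedtools, and the methods also Tophat2 and HTSeq; which made the counts, and whether strand was used, could not be read from them. Groups follow the sample labels. All 23015 rows were fitted in R 4.3.3 with edgeR 4.0.16, using its default filter (minimum count 10, minimum total 15), TMM, the robust quasi-likelihood test and Benjamini-Hochberg adjustment over 15039 rows. Repeated symbols kept separate rows. The procedure was tested on simulated data. As alternatives the filter was dropped or raised to 10 counts in each library, TMM was replaced by RLE or by plain totals, DESeq2 1.42.0 or limma 3.58.1 after quantile normalization replaced edgeR, age or the leading number of the steer label was added as a term, and steers were left out singly. Neighbouring genes and synonyms are those listed by RefSeq for ARS-UCD2.0, a later build than that of the counts, so coordinates are not given. The members and lists were chosen with earlier results of these data known. Named are all members, genes of the other lists past the threshold or with an adjusted p below 0.05, the most abundant gene of each list, and others as said in place.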

Additional observations from a re-analysis of the deposited data

How the results depend on the processing

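With each steer left out in turn, between 1 and 8 members were past the threshold of the study, against 6 with all steers, between 1 and 11 had an unadjusted p below 0.05 by edgeR, against 9, and the median log2 fold change of the tested members lay between 0.17 and 0.69, against 0.36. With age as a term, 1 member was past the threshold and 1 had an unadjusted p below 0.05. The other alternatives gave counts of members in both directions together within 1.5 times those with all steers, although calls of ITGAM, AIF1, CCL2 and CXCR4 changed in some of them. ALOX5 and GRO1 were not tested with at least 10 counts in every library. The count of higher members at an unadjusted p below 0.05 was 2 with library totals alone, against 5, and the median stayed above 0 in all alternatives run. Over all tested genes, 586 were past the threshold, 969 without a filter, 364 with at least 10 counts in every library and 651 with age as a term. With a steer left out there were between 630 and 744. At an adjusted p below 0.05 there were 103 genes by edgeR, 240 without a filter, 291 by DESeq2, 60 by limma after quantile normalization, 31 with age as a term and between 28 and 82 with a steer left out. The cause of these shifts was not tested.
Genes not past the threshold changed sign in some fits. With age as a term the log2 fold changes were -0.036 for PTPRC, -0.14 for CORO1A, -0.18 for ITGB2, -0.21 for MRC1, -0.18 for C1QB, 0.29 for CD68 and -0.026 for NCR3. CD68 was also at 0.15 after quantile normalization. With a steer left out, the values lay between -0.011 and 1.02 for CORO1A, -0.52 and 0.016 for LCP1, -0.011 and 0.50 for ITGB2, -0.59 and 0.52 for CD68 and -0.67 and 0.69 for FCER1G. The cause was not tested. Of the other values of single genes, 566 kept their direction and their side of the threshold, 59 kept the direction and lost the threshold and 20 gained it. The groups share no replicate numbers, so single steers were not paired, and the leading number of the label, which both groups share, was fitted as a term. Depth limits the lymphocyte genes, ALOX5AP, CXCL2 and CXCL8, whose few counts carry a large counting error. Intervals cover counting error only, and ratios against a floor leave out the counting error of the group with counts. Neither covers the spread between steers, and without molecular identifiers copies of a molecule are counted as separate reads.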
